A study of Saccharomyces cerevisiae with 6 samples.

Results

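Read ends on chromatin-associated 25S ribosomal RNA of the yeast Saccharomyces cerevisiae were compared with those on mature, gel-purified 25S rRNA of the same strain. The comparison used 2 of the 6 samples of the study, chosen by their labelled RNA fraction: 1 chromatin library and 1 mature large-subunit (LSU) library. It covered all 3396 positions of 25S rRNA, encoded on chromosome XII from 460923 to 464318 on the minus strand in the files' own coordinates, for which the sources used here name no genome build. Of these, 3384 could be tested, and 12 at the ends could not, because they lack flanking positions on 1 side. The listed modified nucleotides among them numbered 73: 37 ribose methylation sites, 30 pseudouridines and 6 base modifications.

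RiboMeth-seq breaks RNA at its phosphodiester bonds under denaturing conditions, joins the fragments to adapters with a tRNA ligase and counts both ends of every sequenced fragment. A methyl group on the 2'-oxygen of a ribose protects the neighbouring bond, so that a methylated nucleotide holds few read ends compared with its flanks. Ribose methylation of yeast 25S rRNA is guided almost entirely by box C/D small nucleolar RNAs (snoRNAs), each pairing with the rRNA beside its target. Pseudouridines are guided by box H/ACA snoRNAs, and base methylations are made by single enzymes without a guide. Many of these marks are added in the nucleolus while the precursor is transcribed, cut and folded, and some by enzymes of later precursor particles.

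Both libraries came from strain BY4741, labelled wild type, and the chromatin RNA was obtained by a published chromatin purification. A second wild-type library held gel-purified small-subunit (SSU) rRNA and some 25S reads. The 3 other libraries served as context: whole-cell RNA and, separately, gel-purified LSU rRNA came from YWD680, which carries on a plasmid an artificial snoRNA against LSU-U2954 (knock-in), and whole-cell RNA came from YWD486, whose plasmid-borne snR67-snR53 region has a substitution that blocks methylation of LSU-G2619 (knock-out). Every group was 1 sample, so no p-value was computed. All intervals are 95% intervals for counting error only, and since reads carry no molecular identifiers they need not be independent molecules.

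The chromatin library held 18489246 read ends on 25S rRNA, with a median of 3883 per position. The mature library held 1229170, with a median of 333. Read ends were less evenly spread in chromatin, where their coefficient of variation was 0.986 (0.570 in mature rRNA), and the 34 positions with most read ends held 6.87% of all against 3.16%. Across the 3396 positions Spearman's rho between the libraries was 0.336, as a description over positions that share neighbours and libraries. The knock-in whole-cell sample has a first and a second file, here named runs. Between these 19% of positions differed in 1 direction and 12.5% in the other by the criterion used below, so that passing it need not exceed the spread between repeats. Whether they are sequencing runs or separate preparations is not known. Of the 37 ribose sites 2 differed in each direction between the runs.

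The measure was the relative read ends: the count divided by a weighted mean of the positions on either side, where 1 means as many ends as the neighbours and 0 means full protection. A position was called different when the fold between libraries was at least 2 in either direction and its counting interval excluded 1. Ribose methylation sites were less protected in chromatin. Their median relative read ends were 0.162 in chromatin (0.0498 to 0.570 over the sites) and 0.0246 in mature rRNA (0 to 0.388). The chromatin value was above the mature value at 36 of 37 sites, and 32 of 37 were called higher and 0 lower. Over all tested positions 9.52% were called higher and 13.5% lower. The median fold was 6.40 over the ribose sites, with the sites at 0 in mature rRNA entered at their lower bound, and 0.911 over all positions.

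**Figure D1:**
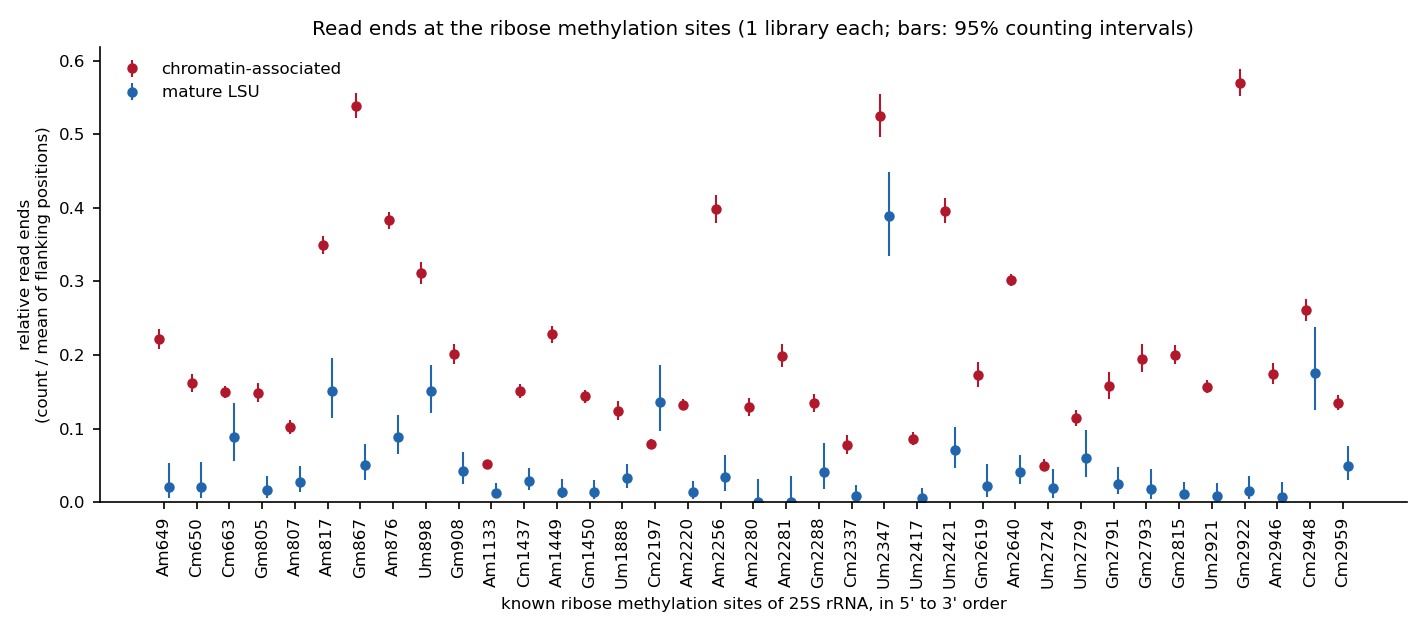
Relative read ends at the 37 known ribose methylation sites of 25S rRNA in the chromatin library (red) and the mature LSU library (blue). The horizontal axis lists the sites from the 5' to the 3' end, points are single libraries and bars are 95% counting intervals. Chromatin lies above mature rRNA at every site except Cm2197, and Gm2922, Gm867 and Um2347 exceed 0.5 in chromatin.

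The residual signal was graded. In chromatin 32 of the 37 sites had relative read ends above 0.1, 13 above 0.2, 9 above 0.3 and 3 above 0.5. In mature rRNA the same limits were passed by 5, 1, 1 and 0 sites. The most protected sites in chromatin were LSU-Um2724, with 0.0498 (0.0422 to 0.0584), and LSU-Am1133, with 0.0525 (0.0488 to 0.0565). Their intervals overlapped, and both were still called higher than in mature rRNA, where they had 0.0195 and 0.0132. The flank of Am1133 includes LSU-1130, which held 47631 read ends in chromatin and 1114 in mature rRNA. This peak lowers the chromatin value of Am1133, so its place among the most protected sites depends on the flank.

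LSU-Gm2922, at chromosome XII position 461397, showed the largest fold of the 37 sites. This nucleotide of the peptidyl transferase centre is methylated by Spb1, an RNA methyltransferase acting on precursor large subunits without a snoRNA guide. It held 3791 read ends in chromatin and 5 in mature rRNA, where the mean flanks were 6651 and 322. The relative read ends were 0.570 (0.552 to 0.589) and 0.0156 (0.00505 to 0.0363), a fold of 36.7 (15.7 to 113). The 5' ends gave a fold of 27.5, and the 3' ends, of which mature rRNA held 0, at least 6.78 with the floor of 3 counts. In the other libraries the site was protected: its relative read ends were 0.0370 (0.0197 to 0.0634) in knock-in mature LSU rRNA and 0.00924 (0.00112 to 0.0334) in the knock-in whole-cell runs. The knock-out had 0 read ends at the site, which allows up to 0.0562, and so had the 25S reads of the SSU library, which allows up to 0.352. Chromatin was thus the only library of the 6 with a value above 0.1 at this site, except that the shallow SSU library cannot show it.

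The nucleotides beside Gm2922 had lower chromatin values. LSU-Um2921, guided by snR52, held 1117 read ends in chromatin and 3 in mature rRNA, with relative read ends of 0.157 (0.148 to 0.167) and 0.00899 (0.00185 to 0.0263) and a fold of 17.5 (5.96 to 84.9). Pseudouridine LSU-Psi2923, guided by snR10, held 1464 and 109 read ends, with a fold of 0.590 (0.484 to 0.726), below 1 but not called. The chromatin values of these adjacent modified nucleotides, 0.157, 0.570 and 0.216, therefore differed although their flanks nearly coincide. Both neighbours are themselves low in read ends and enter the flank of Gm2922. With listed modified positions left out of the flanks, Gm2922 was still called higher.

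LSU-Gm867 and LSU-Am2256 were the other sites that also passed a rule on the methylation score, 1 minus the relative read ends. That rule asked for a difference beyond 0.329, which is 2 SD of the score difference between the knock-in runs over the 37 sites. It was passed downwards by these sites and Gm2922, 3 of 37, and by 6.41% of all positions, so this count is near the background. The limit rests largely on 1 site, LSU-Um2421: with that site left out of the SD 13 sites passed, and with its run difference as the limit 0 passed. From 5' ends alone 14 passed, but there the limit, taken from the same ends, was 0.182. The share of all positions was computed only for the limit of 0.329 from both ends, so the counts of 13 and 14 have no background beside them. Gm867, guided by snR50, held 4280 read ends in chromatin and 19 in mature rRNA, with relative read ends of 0.539 (0.522 to 0.555) and 0.0506 (0.0305 to 0.0792) and a fold of 10.6 (6.79 to 17.7). Am2256, guided by snR63, held 1802 and 9, with 0.398 (0.380 to 0.417) and 0.0341 (0.0156 to 0.0649) and a fold of 11.7 (6.13 to 25.6). At Am2256 the excess lay mostly in 5' ends: 1653 of its chromatin read ends were 5' ends and 149 were 3' ends.

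These sites differed in the other libraries. Gm867 was also weakly protected in knock-in mature LSU rRNA, at 0.451 (0.40 to 0.507), and intermediate in the knock-in whole-cell runs, at 0.177, and in the knock-out, at 0.190. Am2256 was low in each of them: 0.0799 (0.0425 to 0.137) in knock-in mature LSU rRNA, 0.0385 in the whole-cell runs and 0 in the knock-out, which allows up to 0.145. The value of Gm867 in chromatin thus had a near match in a mature library, and those of Gm2922 and Am2256 had none.

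**Figure D2:**
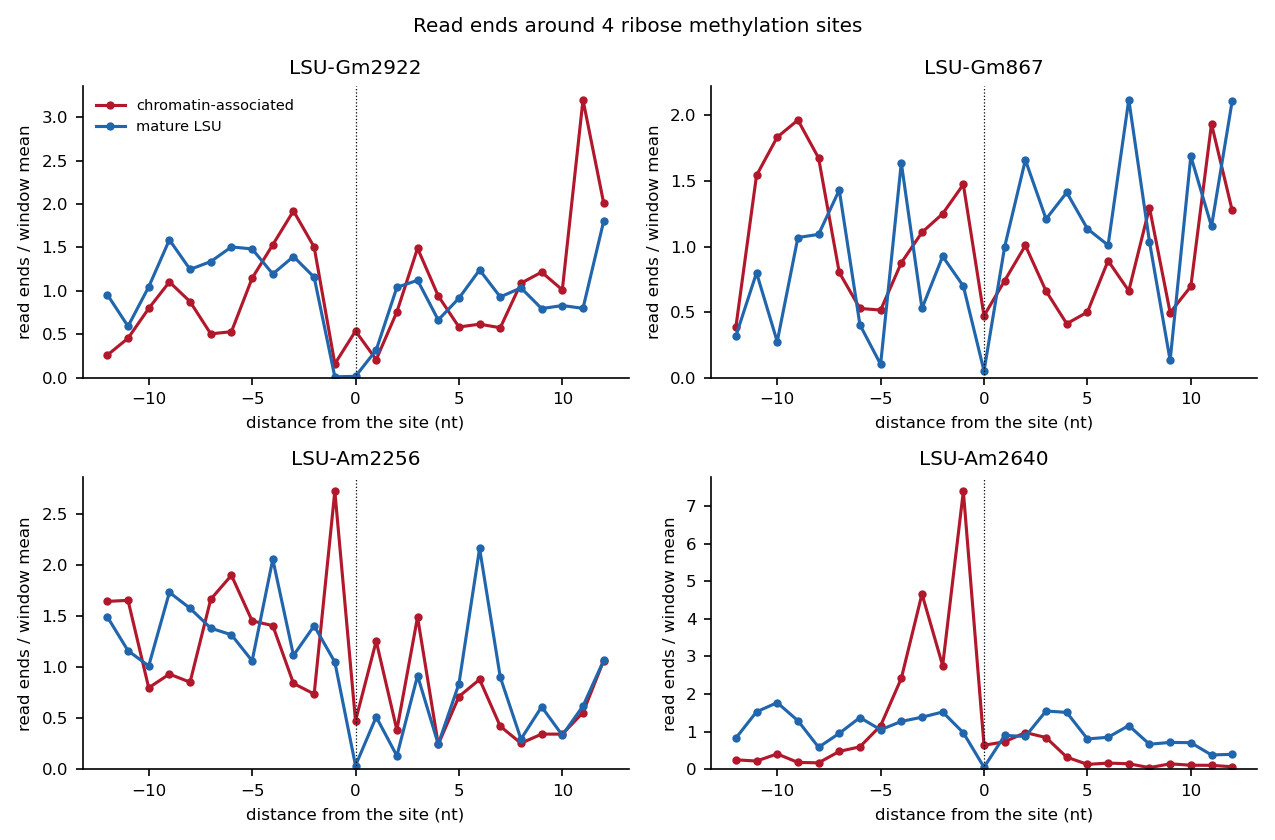
Read ends from 12 nt upstream to 12 nt downstream of 4 ribose methylation sites, each divided by the mean of the window, in chromatin (red) and mature rRNA (blue). The horizontal axis is the distance from the site in nt, and the dotted line marks the site. Mature rRNA drops to near 0 at each site, chromatin keeps 0.536 of the window mean at Gm2922 and 0.634 at Am2640, and a peak of 7.39 stands 1 nt upstream of Am2640.

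LSU-Am2640, guided by snR68, had the highest position of chromatin 25S rRNA as its neighbour. It held 5198 read ends in chromatin and 20 in mature rRNA, with relative read ends of 0.302 (0.293 to 0.310) and 0.0418 (0.0255 to 0.0646), a fold of 7.22 (4.67 to 11.8). That position, LSU-2639, just upstream, held 60563 read ends in chromatin, of which 60199 were 5' ends. Mature rRNA held 396 there. At Am2640 itself 5131 of the chromatin read ends were 5' ends and 67 were 3' ends, and the fold was 11.7 from 5' ends but 1.5, not called, from 3' ends. With the 34 positions with most read ends left out of the flanks, the fold of relative read ends at LSU-Am2640 was 12.5, and with the median of the flanking positions 16.6.

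Several guides direct more than 1 site. The sites of snR24 were LSU-Cm1437, LSU-Am1449 and LSU-Gm1450, and all 3 were called higher, with folds of 5.19 (3.27 to 8.80), 16 (7.33 to 43.7) and 10.5 (4.81 to 28.7). Am1449 held 1551 read ends in chromatin and 6 in mature rRNA. The adjacent sites of snR13, LSU-Am2280 and LSU-Am2281, held 449 and 625 read ends in chromatin and 0 each in mature rRNA. With a floor of 3 counts per site their relative read ends were at least 5.36-fold and at least 7.20-fold higher in chromatin. The adjacent sites of snR18, LSU-Am649 and LSU-Cm650, held 966 and 682 in chromatin and 4 each in mature rRNA, with folds of 10.5 (4.09 to 38.7) and 7.59 (2.95 to 28.0). Both sites of snR48 (LSU-Gm2791 and LSU-Gm2793), snR60 (LSU-Am817 and LSU-Gm908) and snR67 (LSU-Gm2619 and LSU-Um2724) were called higher as well. All ribose methylation sites of these 6 guides were thus called, where 32 of 37 were called over all ribose sites.

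Sites of a single guide could differ widely from each other in level. The sites of snR60 had chromatin values of 0.349 (0.337 to 0.362) at Am817 and 0.201 (0.188 to 0.214) at Gm908, and those of snR67 had 0.173 (0.157 to 0.191) at Gm2619 and 0.0498 (0.0422 to 0.0584) at Um2724. Neither pair of intervals overlapped. The snR13 pair, 1 nt apart, also differed, with 0.130 (0.118 to 0.142) and 0.198 (0.183 to 0.215).

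Other sites with high folds were LSU-Am2946 (snR71), LSU-Gm2815 (snR38) and LSU-Um2417 (snR66). Am2946 held 614 read ends in chromatin and 2 in mature rRNA, a fold of 23.0 (6.35 to 191). Gm2815 held 983 and 5, a fold of 17.0 (7.25 to 52.4). Um2417 held 360 and 2, a fold of 16 (4.38 to 132). These intervals are wide because of the few read ends in mature rRNA, and they overlap one another and that of Gm2922, so that the order of the highest folds is not resolved. The chromatin values behind them were moderate, at 0.175, 0.20 and 0.0861.

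The 5 sites that were not called were LSU-Cm663 (snR58), LSU-Cm2197 (snR76), LSU-Um2347 (snR65), LSU-Um2729 (snR51) and LSU-Cm2948 (snR69), all pyrimidines. LSU-Um2347 was poorly protected in both libraries: it held 1322 read ends in chromatin and 191 in mature rRNA, with relative read ends of 0.525 (0.497 to 0.555) and 0.388 (0.334 to 0.448) and a fold of 1.35 (1.16 to 1.59). It was also the least protected ribose site of mature rRNA. Its values in the knock-in mature LSU, knock-in whole-cell and knock-out libraries were 0.656, 0.652 and 0.546. LSU-Cm2197 was the exception in direction, with 0.0795 (0.0738 to 0.0856) in chromatin and 0.136 (0.0964 to 0.186) in mature rRNA, a fold of 0.586 (0.423 to 0.832). The folds at Cm663, Um2729 and Cm2948 were 1.67 (1.10 to 2.68), 1.90 (1.16 to 3.36) and 1.49 (1.09 to 2.09), above 1 but under the limit. The 5 folds nearest to 1 were those of Um2347, Cm2948, Cm663, Cm2197 and Um2729.

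By base, 12 of 12 methylated adenosines and 10 of 10 guanosines were called higher, against 4 of 7 cytidines and 6 of 8 uridines. Median chromatin values were close, at 0.210 for A, 0.184 for G, 0.149 for C and 0.141 for U. Median mature values were 0.0177 and 0.0200 for A and G and 0.0499 and 0.0467 for C and U. By region, 13 of the 14 sites up to position 1500, 9 of 11 from there to position 2500 and 10 of 12 beyond were called, with median folds of 4.97, 5.62 and 7.53. The ranges of folds in the regions overlapped widely. Over all tested positions 9.52% were called higher. That share was not split by region, nor by base, since no rRNA sequence was at hand. Whether the contrast between bases belongs to methylation was not tested.

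The remaining sites called higher had folds from 2.06 at LSU-Um898 to 9.81 at LSU-Am2220. Among them were LSU-Gm805 at 9.09 (4.14 to 24.9), LSU-Am807 at 3.69 (2.04 to 7.46), LSU-Gm2288 at 3.32 (1.67 to 7.74) and LSU-Cm2337 at 9.57 (3.21 to 46.9). Am2220, guided by snR47, held 1313 read ends in chromatin and 6 in mature rRNA. LSU-Um2421, guided by snR78, rested on uneven ends: 1980 of its 2144 chromatin read ends were 3' ends. Its relative read ends were 0.396 (0.379 to 0.413) in chromatin and 0.0704 (0.0468 to 0.102) in mature rRNA, but 0.128 and 1.42 in the 2 knock-in runs. This site therefore varied more between the runs of 1 sample than between chromatin and mature rRNA.

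Counting the 3' and 5' ends of fragments apart gives separate readings of the same bonds within a library. From 3' ends alone 30 of 37 ribose sites were called higher, with 18.6% of all positions called higher. From 5' ends alone 29 were called, with 11.6% of all positions. Both readings called 24 sites, and the share of all positions called in both was not computed. Of the 37 sites 34 (91.9%) had folds above 1 in both, as did 18.8% of the 3273 unlisted positions. The median folds were 3.82 from 3' ends and 5.15 from 5' ends, with sites at 0 in mature rRNA at their lower bound. LSU-Um2724 was called from both ends together, at 2.56 (1.07 to 8.0), but from neither alone.

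Pseudouridines behaved differently. From both ends together 2 of 30 were called higher and 3 lower, shares close to the 9.52% and 13.5% of all positions. The higher ones were LSU-Psi2191 (snR32), with relative read ends of 0.407 in chromatin and 0.177 in mature rRNA, a fold of 2.30 (1.61 to 3.39), and LSU-Psi2258 (snR191), with 0.390 and 0.145, a fold of 2.69 (1.91 to 3.91). The lower ones were LSU-Psi1124 (snR5), with 0.0997 and 0.469, a fold of 0.212 (0.183 to 0.248), LSU-Psi2314 (snR86) at 0.437 (0.368 to 0.523) and LSU-Psi2416 (snR11) at 0.439 (0.381 to 0.509). The flank of Psi1124 includes the chromatin peak at LSU-1130, with 47631 read ends. Over 15 alternatives its fold ranged from 0.153 to 0.779, and Psi1124 was called lower in 12. The median over the 30 sites was 0.268 in chromatin and 0.310 in mature rRNA.

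Against wild-type mature LSU rRNA the near balance at pseudouridines hid opposite differences in the 2 kinds of end. From 3' ends, 22 of 30 were called higher and 1 lower (18.1% of all positions lower), and 29 of 30 folds were above 1. The median relative 3' ends were 0.245 in chromatin and 0.0786 in mature rRNA. From 5' ends, 0 were called higher and 8 lower, with 20.3% of all positions called lower. Folds were below 1 at 27 of 30, and at 2014 of all 3367 positions tested from 5' ends. The median relative 5' ends were 0.352 in chromatin and 0.507 in mature rRNA. More 3' ends and fewer 5' ends in chromatin were found together at 26 of 30 pseudouridines (86.7%) and at 27.8% of unlisted positions. LSU-Psi986, guided by snR8, had the largest fold of the 30 from 3' ends: 7 of its 142 read ends in mature rRNA and 1450 of its 2387 in chromatin were 3' ends, with folds of 13 from 3' ends and 0.684 from 5' ends. At LSU-Psi2880, guided by snR34, 1 of 45 and 786 of 1183 were 3' ends. The rise in 3' ends depended on the reference. Summed over the 30 sites, the fold of relative 3' ends was 2.47 (2.27 to 2.70) against wild-type mature LSU rRNA and 1.96 (1.81 to 2.13) against knock-in mature LSU rRNA. It was 1.24 (1.06 to 1.45) against the knock-out, 1.14 (1.06 to 1.22) against the knock-in whole-cell runs and 0.868 (0.704 to 1.08) against the 25S reads of the SSU library. The fold of relative 5' ends stayed below 1, between 0.541 and 0.596, against each of these references.

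**Figure D3:**
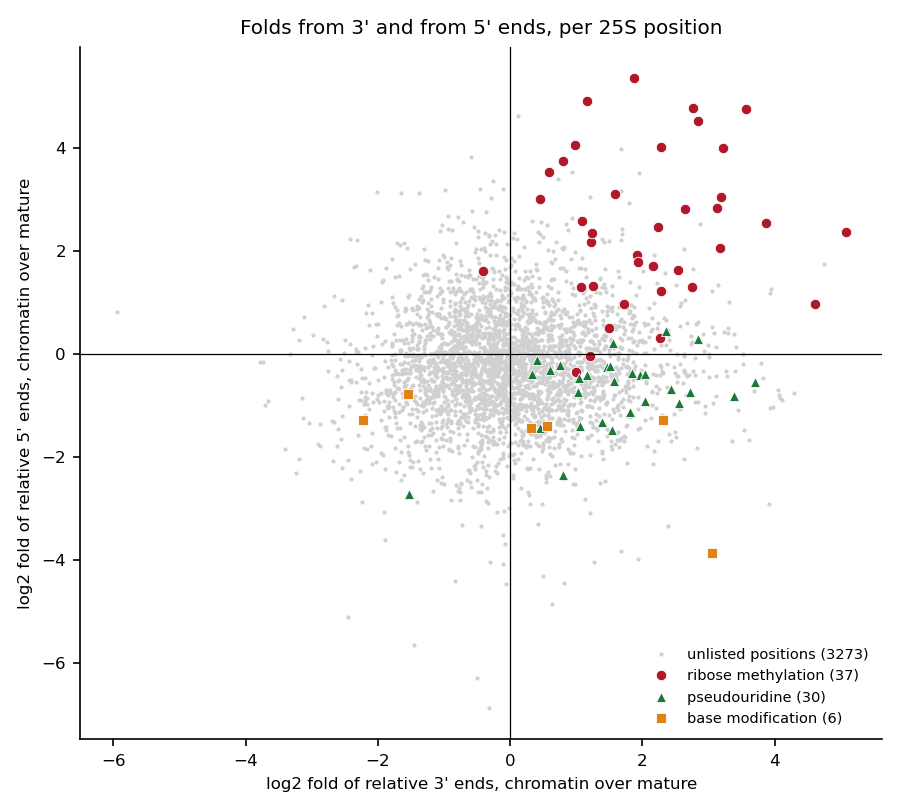
Fold of relative read ends between chromatin and mature rRNA on a log2 scale, from 3' ends (horizontal) and 5' ends (vertical), 1 point per 25S position. Ribose methylation sites (red circles) lie mostly in the upper right, with 34 of 37 above 1-fold for both ends, and pseudouridines (green triangles) mostly in the lower right, 26 of 30, and unlisted positions (grey) surround the origin.

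Base modifications were lower in chromatin from 5' ends. All 6 had folds below 1, as had 2014 of all 3367 positions tested from 5' ends. Of the 6, 5 were called lower (20.3% of all positions), with m5C2870 at 0.584 as the exception. From 3' ends 4 of 6 folds were above 1, with 2 called higher and 2 lower (18.6% and 18.1% of all positions). From both ends together LSU-m1A645, made by Rrp8, had relative read ends of 0.493 (0.474 to 0.512) in chromatin and 1.5 (1.31 to 1.72) in mature rRNA, a fold of 0.328 (0.285 to 0.378). LSU-m3U2634, made by Bmt5, had 0.355 (0.345 to 0.365) and 1.23 (1.13 to 1.34), a fold of 0.289 (0.263 to 0.317). Its direction depended on the ends, with a fold of 8.31, called higher, from 3' ends and 0.0689 from 5' ends. It held 1805 5' ends and 3052 3' ends in chromatin but 489 and 73 in mature rRNA. LSU-m5C2278, made by Rcm1, was called higher, at 0.578 and 0.258, a fold of 2.24 (1.67 to 3.09), from 3' ends at 4.96 and from 5' ends at 0.414. LSU-m1A2142 (Bmt2), LSU-m3U2843 (Bmt6) and LSU-m5C2870 (Nop2) were not called from both ends, with folds of 0.772, 0.930 and 0.632. Positions of m3U2634 and Am2640 lie 6 nt apart, so the peak at LSU-2639 enters the flank of both.

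Chromatin was the least protected of the 6 libraries over the ribose sites together, but not by a constant margin. Summed over the 37 sites, the read ends divided by the summed flanks were 0.226 (0.224 to 0.228) in chromatin. They were 0.0575 (0.0535 to 0.0618) in wild-type mature LSU rRNA and 0.0726 (0.0537 to 0.0961) in the 25S reads of the wild-type SSU library, of which 49 fell on the sites. Knock-in mature LSU rRNA had 0.195 (0.188 to 0.203), the knock-in whole-cell runs 0.134 (0.126 to 0.143) and the knock-out 0.148 (0.131 to 0.166), or 0.0912 (0.0779 to 0.106) without LSU-Gm2619, whose methylation is blocked there.

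**Figure D4:**
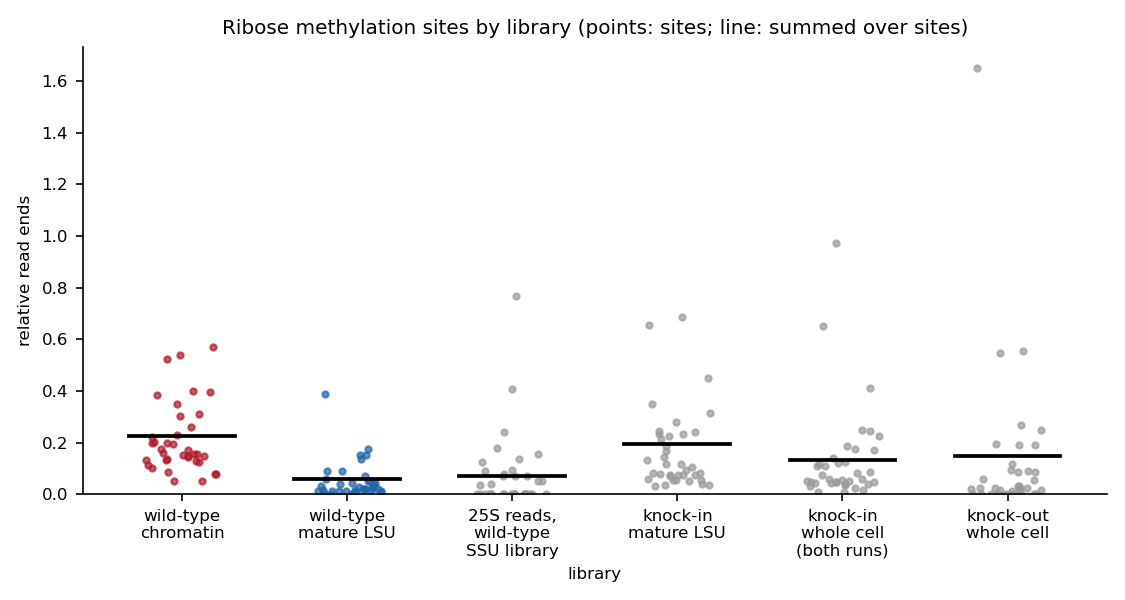
Relative read ends at the ribose methylation sites of 25S rRNA (points) in each library, with the value summed over the 37 sites as a black line. Chromatin (0.226) has the highest summed value and wild-type mature LSU rRNA (0.0575) the lowest, and knock-in mature LSU rRNA (0.195) lies close to chromatin. The highest point of the knock-out, 1.65, is LSU-Gm2619.

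The size of the chromatin difference therefore depended on the reference. The fold of chromatin over the reference, summed over the sites, was 3.93 (3.65 to 4.22) against wild-type mature LSU rRNA, 3.11 (2.35 to 4.21) against the 25S reads of the SSU library and 1.68 (1.58 to 1.79) against the knock-in whole-cell runs. It was 1.53 (1.36 to 1.73) against the knock-out, or 2.48 (2.13 to 2.91) without LSU-Gm2619, and 1.16 (1.11 to 1.2) against knock-in mature LSU rRNA. In the same order of references, chromatin had the higher relative read ends at 36, 33, 29, 30 and 25 of 37 sites. The knock-out held 0 read ends at 11 of these sites and the SSU library at 20, so chromatin could not be lower there. Against the SSU library 4 of 37 sites were called higher, where 8.14% of all positions were. At sites with 0 read ends there, the floor of 3 counts keeps the fold low against its median of 18 read ends per position. This count of calls therefore cannot show how many sites differ. From 3' ends alone the fold against knock-in mature LSU rRNA was 0.992 (0.943 to 1.04), and from 5' ends alone 1.43 (1.34 to 1.52). Knock-in mature LSU rRNA was itself called higher than wild-type mature rRNA at 25 of 37 ribose sites, where 4.31% of all positions were called higher, so a mature library can stand above the wild-type one as chromatin does. The knock-in whole-cell runs were called higher at 17 of 37 (8.16% of all positions) and the knock-out at 5 of the 35 sites tested (7.27% of all positions). Wild-type mature LSU rRNA is common to all these comparisons. The knock-in mature library also differs in strain, and its headers record a read handling of its own, so these differences cannot be told apart.

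The distribution of read ends along 25S differed as well. In 12 equal bins the share of chromatin read ends divided by that of mature read ends ranged from 0.652 to 1.64. The lowest ratio was in the ninth bin, positions 2265 to 2547, which held 4.91% of chromatin and 7.53% of mature read ends, and the highest in the bin before it, positions 1982 to 2264, with 11.2% and 6.81%. The second bin, positions 284 to 566, had 6.11% and 9.13%, a ratio of 0.669. The shares showed no steady trend from the 5' to the 3' end. The 5' part up to position 1698 held 52.7% of chromatin and 55.1% of mature read ends, and from 52.5% to 60.2% in the knock-out library, the combined knock-in runs and the knock-in mature library. The knock-in mature LSU library also held a low share in the second bin, 6.23%, and the 25S reads of the SSU library a high share in the eighth, 11.0%.

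Chromatin RNA also held fragments that reach across the 5' end of mature 25S rRNA. Fragments were 20 to 40 nucleotides long, per the design text, so that within that range a 3' end in the first 15 positions belongs to a fragment that began upstream, in the internal transcribed spacer of the precursor. The chromatin library held 3772 such 3' ends, a mean per position that was 9.15% (8.86 to 9.45) of the mean over positions 41 to 3356. Mature LSU rRNA held 11, or 0.402% (0.201 to 0.720). The knock-in mature LSU library held 4, or 0.141% (0.0383 to 0.360), the knock-in whole-cell runs 9, or 0.553% (0.253 to 1.05), and the knock-out 4, or 0.853% (0.232 to 2.18). The 25S reads of the SSU library were the exception, with 11 ends on a low mean, or 7.0% (3.50 to 12.5). At the other end of 25S, 5' ends within the last 15 positions numbered 65 in chromatin, or 0.159% (0.123 to 0.203), and 0 in the mature library, which allows up to 0.134%, within the chromatin interval. A difference between the libraries at this end was not detectable at this depth. How much mature rRNA the chromatin fraction held was not tested. The windows were chosen after the counts were seen.

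**Figure D5:**
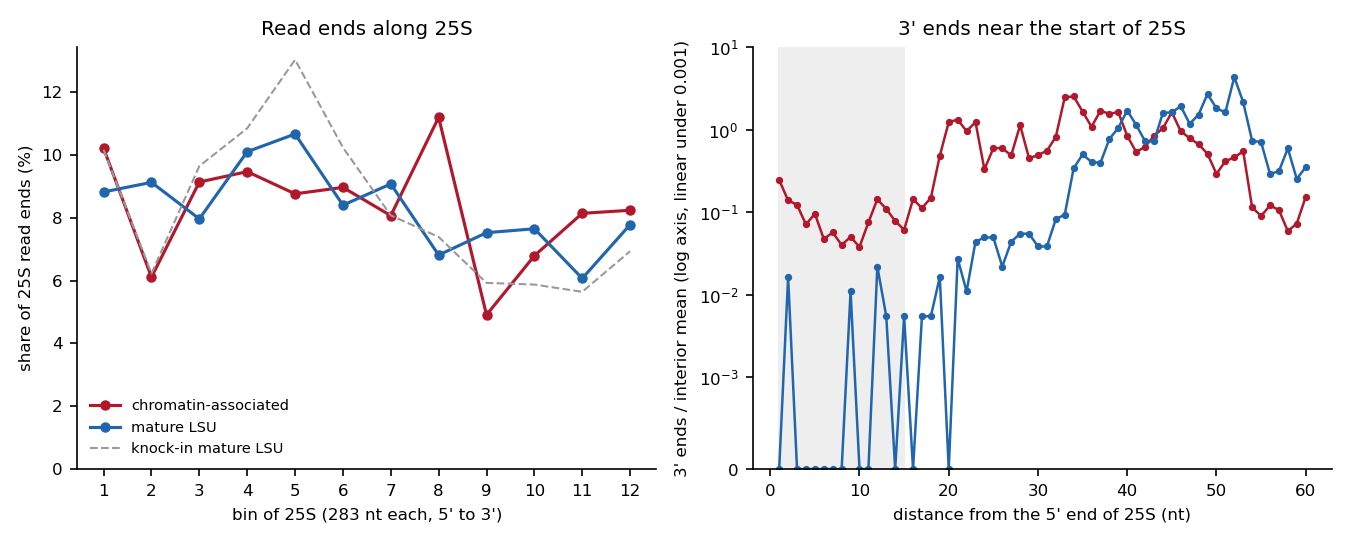
Left: share of 25S read ends in 12 equal bins from the 5' to the 3' end, in percent, for chromatin (red), mature LSU rRNA (blue) and knock-in mature LSU rRNA (grey). Right: 3' ends at the first 60 positions divided by the mean over positions 41 to 3356, on a log axis that is linear under 0.001, with positions 1 to 15 shaded. Chromatin holds 3772 3' ends in the shaded window and mature rRNA 11.

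The libraries also differed in 3' ends just inside the 5' end of 25S. A 3' end at positions 19 to 30 can come from a fragment that starts at the 5' end of 25S only if that fragment is short. The mean 3' ends per position in that window were 77.5% of the mean over positions 41 to 3356 in chromatin, 3.43% in mature LSU rRNA, 86.0% in the 25S reads of the SSU library and 13.3% in knock-in mature LSU rRNA. The knock-in runs had 1.41% and 76.9%, so that this measure moved by run within a sample. The second run, close to chromatin in this window, had 0.729% (0.315 to 1.44) in the first 15 positions, where chromatin had 9.15%. Fragments that span the 5' end can also have 3' ends in this window, and their part in the chromatin value was not tested. Fragment length itself was not measured, and its part in the folds above was not tested.

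Positions outside the lists also differed by large folds in both directions. With a mean flank of at least 100 in both libraries, 3294 unlisted positions were ranked. The lowest folds were at LSU-2583, LSU-2776, LSU-3306, LSU-693 and LSU-1766, from 0.0791 (0.0632 to 0.0986) to 0.157 (0.141 to 0.175). The flank of LSU-1766 includes LSU-1762 and LSU-1764, with 49963 and 51360 read ends in chromatin and 262 and 272 in mature rRNA. Under the alternatives the fold of LSU-1766 ranged from 0.138 to 0.596. LSU-2583 held 138 read ends in chromatin and 216 in mature rRNA, with relative read ends of 0.0463 and 0.586. In chromatin it was as low as the best protected ribose sites. The highest folds were at LSU-3335, LSU-3070, LSU-1878, LSU-3242 and LSU-857, from 9.75 (7.80 to 12.3) to 6.65 (5.46 to 8.17). LSU-3070 held 38147 read ends in chromatin and 230 in mature rRNA, with relative read ends of 7.76 and 1.01. LSU-857 and LSU-1878 each lie 10 nt from a ribose methylation site, outside its flank. Gm2922, Am2946, Um2921, Gm2815, Am1449, Um2417, Am2256, Gm2793, Gm867, Am649, Gm1450 and Am2220 had folds above that of LSU-3335, the highest among unlisted positions. Only the interval of Gm2922 (15.7 to 113) lay wholly above that of LSU-3335. Those of the other named sites overlapped it, so their order against LSU-3335 is not resolved.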

How the data were processed

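The deposited tracks hold read-end counts per position, which the authors left without normalization and stored, per the file headers, in a signal column shared with score tracks of their own; the authors' deposited scores were not used. The submitters' processing notes name cutadapt 1.2 and Bowtie2 2.1.0. The sources used here do not state mapping options. Relative read ends were the count divided by the average of the left and right flank means (6 positions a side, weights from 1 to 0.5 in steps of 0.1). The fold between libraries had a 95% interval from the exact conditional binomial distribution, widened by the counting error of the flanks. A count of 0 was set to a floor of 3. A mean flank of at least 10 was required, and calls needed a fold of 2. The methylation score is 1 minus the relative read ends, with negative values set to 0. Python 3.11.15, NumPy 2.4.6 and SciPy 1.17.1 were used. The fold was tested on simulated counts that carried counting error only and whose means were kept well above 0. The floor, and counts as low as those of many ribose sites in mature rRNA, were therefore not tested there. The 73 sites were listed from general knowledge of modified yeast rRNA positions. Of these 72 were in the deposited annotation, LSU-m5C2870 being the exception, and all 59 guides and enzymes were in the R64 gene table. Named sites were those called by either rule, ribose sites within 10 nt of them, the 5 ribose sites with folds nearest to 1, and the 5 highest and 5 lowest unlisted positions. The members and lists were chosen with earlier results of these data known. LSU-Am2640 in particular was singled out after its values were seen, as were LSU-2639, LSU-1130, LSU-1762, LSU-1764, LSU-Psi986 and LSU-Psi2880.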

Additional observations from a re-analysis of the deposited data

How the results depend on the processing

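No paired analysis was possible because every group held 1 sample, and no replicate could be left out for the same reason. With wild-type mature LSU rRNA as the reference, the count of ribose sites called higher stayed within 1.5 times of 32 under every alternative run, and 21 of the 32 sites were called under each of them. LSU-Am1449 and LSU-Gm2922 were called under every alternative, other references included. The causes of the changes below were not tested. For sites lower or higher in score under an alternative, the share of all positions was not computed.

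From 3' ends alone 626 of 3363 positions were called higher and 610 lower. Of the pseudouridines and base modifications 24 were higher and 3 lower. The fold summed over pseudouridines turned from 0.860 to 2.47, and those of LSU-Psi2314, LSU-Psi2416 and LSU-m3U2634 turned to 1.53, 2.03 and 8.31. From 5' ends alone 392 of 3367 positions were higher and 684 lower. Of these modifications 0 were higher and 13 lower, the summed pseudouridine fold was 0.554 and LSU-m5C2278 turned to 0.414. There 14 ribose sites were lower in score, at a limit of 0.182 taken from the same ends. Flanks of 2 positions left 287 positions called lower. With the median of 12 flanking positions 306 of 3384 positions were lower, as were 2 pseudouridines and base modifications. Under this setting 6 ribose sites were lower in score, and the summed folds were 4.58 over ribose sites and 0.997 over pseudouridines.

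Against the knock-in whole-cell runs 552 of 3384 positions were higher and 547 lower. Of the ribose sites 19 were higher, 2 lower and 1 higher in score, 9 pseudouridines and base modifications were lower, and the summed folds were 1.68 and 0.805. The folds of LSU-Am2220, LSU-Um2421, LSU-Um2724 and LSU-Cm2959 turned to 0.768, 0.407, 0.864 and 0.722, those of LSU-Psi2191, LSU-Psi2258 and LSU-m5C2278 to 0.814, 0.907 and 0.127, and those of LSU-Psi2416 and LSU-m1A645 to 1.53 and 1.21. Against the knock-out 417 of 3384 positions were higher and 518 lower. Of the ribose sites 16 were higher, 1 lower and 1 higher in score, and 1 pseudouridine or base modification was higher. The summed folds were 1.53 (2.48 without LSU-Gm2619) and 0.742. There LSU-Um2421, LSU-Gm2619, LSU-Um2724, LSU-Psi2191 and LSU-m5C2278 turned to 0.712, 0.105, 0.576, 0.804 and 0.407. Against knock-in mature LSU rRNA 247 of 3384 positions were higher and 363 lower. Of the ribose sites 13 were higher, 1 lower and 1 lower in score, with a summed fold of 1.16. LSU-Cm650, LSU-Am876, LSU-Gm908, LSU-Um1888 and LSU-Am2220 turned to 0.867, 0.558, 0.642, 0.533 and 0.789, and LSU-Am2280, LSU-Um2724, LSU-Am2946 and LSU-Cm2959 to 0.551, 0.617, 0.712 and 0.634.

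The 25S reads of the SSU library were an alternative reference chosen after seeing the data. Against them 4 ribose sites and 0 pseudouridines or base modifications were higher (8.14% of all positions). Of the latter 10 were lower (13.6% of all positions), and the summed folds were 3.11 and 0.663. LSU-Am2280, LSU-Um2421, LSU-Um2724, LSU-Psi2258, LSU-Psi2314 and LSU-m5C2278 turned to 0.95, 0.969, 0.719, 0.870, 1.73 and 0.487. Its median of 18 read ends per position limits this reference. Sites at 0 whose bound fell below 1 gave no value.

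A fold of 1.5 called 621 positions higher and 944 lower, 1 ribose site and 10 pseudouridines and base modifications lower. A fold of 3 called 117 and 120 positions, and 0 of these modifications higher and 3 lower. The 3 ribose sites lower in score became 13 without the largest run difference in the limit and 0 with that difference as the limit. Leaving the 34 positions with most read ends out of the flanks, also chosen after seeing the data, gave 5 such sites and a summed pseudouridine fold of 0.901. Without those positions the ratio of shares of the 5' part of 25S was 0.979 in place of 0.956, and that of the last bin turned from 1.06 to 0.993.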
